A study of Mus musculus with 14 samples.

Results

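The regions described here are 500-base windows of the mouse genome whose chromatin was more open in hair follicle stem cells (HFSCs) than in epidermal stem cells (EpdSCs) of young mice. Openness was measured by ATAC-seq, in which a transposase cuts and tags accessible DNA, so that more reads over a window mean a more open window. Signal is given in CPM, the counts of a window per 1000000 counts over all non-overlapping windows on chromosomes 1 to 19 and X. A window was taken when it had 4 CPM or more in young HFSCs and when its CPM plus 0.1 was 4 or more times that in young EpdSCs. Of 5267565 windows, 6702 met the rule, which is 0.127% of them, and 33473 had 4 CPM or more in young HFSCs. The young libraries therefore chose these windows, and their values are given as a description. The 24-month ATAC libraries and all RNA libraries played no part in the choice.

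Cells came from the back skin of female mice aged 24 months (aged) or 2 months (young), which the labels call C57B8 in one field and C57B6 in another. Skin was digested with trypsin and cells were sorted as lineage-negative and high in integrin α6. HFSCs were taken as CD34+ Sca1- and EpdSCs as CD34- Sca1+. There was 1 ATAC library each of aged HFSCs, young HFSCs, aged EpdSCs and young EpdSCs, and 2 RNA-seq libraries of each of these 4 groups. The labels name no treatment or genetic change. They do not say whether libraries came from separate mice, so p-values below measure only the spread between these libraries, which may be technical. The RNA carried the sort markers of each label. Cd34, which encodes the surface protein used to sort HFSCs, averaged 1141 ± 75.0 CPM in aged HFSCs, 1761 ± 65.2 CPM in young HFSCs, 0.463 ± 0.174 CPM in aged EpdSCs and 1.20 ± 0.863 CPM in young EpdSCs (SD, n = 2 each). Ly6a, which encodes Sca1, was at most 1.97 CPM in the HFSC libraries and at least 133 CPM in the EpdSC libraries.

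HFSCs sit in the bulge, the outer niche of the resting hair follicle, and rebuild the lower follicle in each hair cycle. EpdSCs sit in the basal layer between follicles and renew the epidermis, which forms the barrier of the skin. Both are keratinocytes and share most of their open promoters. HFSC identity is known to rest on transcription factors such as SOX9, LHX2, TCF7L1, TCF7L2, NFATC1 and NFIB, and much of the regulation of such cell-specific programmes lies in enhancers far from gene starts. Quiescence in the bulge is kept by BMP signals and by inhibitors of WNT signalling, while WNT activation starts hair growth.

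The 8 RNA libraries held 25126808 to 35905505 counts. The ATAC libraries held 8243611 counts in aged HFSCs, 26169738 in young HFSCs, 22933001 in aged EpdSCs and 37322834 in young EpdSCs on these windows. The aged HFSC library stood apart. Windows at gene starts took 4.00% of its counts, against 7.50% in young HFSCs, 7.83% in aged EpdSCs and 7.16% in young EpdSCs. A level of 4 CPM corresponds to 33.0 counts in aged HFSCs, 105 in young HFSCs, 91.7 in aged EpdSCs and 149 in young EpdSCs, so single windows were measured least precisely in aged HFSCs. Among windows with 4 CPM or more in both young libraries, 11148 had a young log2 ratio between -0.32 and 0.32 and are called equally open windows here. In these the median log2 ratio of aged HFSCs over aged EpdSCs was -1.02. The aged HFSC library was lower by that much at windows of like signal in the young mice, and ratios within the aged pair are also given after scaling by the counts at gene starts. With 1 ATAC library per group no ATAC difference has a replicate check, and intervals given for counts cover counting error only. In such bulk libraries a smaller share of cells with an open window and less opening per cell cannot be told apart, and the same holds for RNA.

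A few promoters show what such windows hold where they fall on a gene start. Of the RefSeq promoters of GRCm38.p6 (250 bases before to 50 bases after a start), 50 promoters of 49 genes shared at least 150 bases with one of the 6702 windows. The sequences below are the 250 bases before the start, 5′ to 3′ on the strand of the gene. They were chosen to show letters of 3 of the 12 motifs searched, after the letters had been counted, with Cd34 and Postn as promoters of bulge genes that hold none of the motifs searched. Capitals mark SOX letters (ATTGTT), TEAD letters (GGAATG) and TCF/LEF letters (ATCAAAG) on either strand.
Cd34, chr1:194938571-194938820, plus strand: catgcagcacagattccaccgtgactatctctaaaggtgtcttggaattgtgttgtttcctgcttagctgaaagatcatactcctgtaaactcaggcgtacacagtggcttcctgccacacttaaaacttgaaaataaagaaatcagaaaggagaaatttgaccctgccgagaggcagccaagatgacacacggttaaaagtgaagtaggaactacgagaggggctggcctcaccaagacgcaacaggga
Postn, chr3:54360857-54361106, plus strand: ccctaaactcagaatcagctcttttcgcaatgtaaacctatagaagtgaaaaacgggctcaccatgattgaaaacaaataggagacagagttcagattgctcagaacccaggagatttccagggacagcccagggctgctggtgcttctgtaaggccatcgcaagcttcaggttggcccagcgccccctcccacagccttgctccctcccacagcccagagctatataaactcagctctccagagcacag
Angptl7, chr4:148500463-148500712, minus strand: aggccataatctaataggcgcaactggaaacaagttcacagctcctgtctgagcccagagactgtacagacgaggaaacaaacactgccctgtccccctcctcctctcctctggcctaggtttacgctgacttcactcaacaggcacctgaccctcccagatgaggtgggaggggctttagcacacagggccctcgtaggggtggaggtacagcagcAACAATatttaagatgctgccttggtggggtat
S100a4, chr3:90603520-90603769, plus strand: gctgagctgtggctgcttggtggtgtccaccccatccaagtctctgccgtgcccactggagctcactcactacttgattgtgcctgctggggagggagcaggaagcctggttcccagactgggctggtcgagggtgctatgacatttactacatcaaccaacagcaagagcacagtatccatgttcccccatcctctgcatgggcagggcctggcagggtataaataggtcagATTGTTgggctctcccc
Shisa2, chr14:59625031-59625280, plus strand: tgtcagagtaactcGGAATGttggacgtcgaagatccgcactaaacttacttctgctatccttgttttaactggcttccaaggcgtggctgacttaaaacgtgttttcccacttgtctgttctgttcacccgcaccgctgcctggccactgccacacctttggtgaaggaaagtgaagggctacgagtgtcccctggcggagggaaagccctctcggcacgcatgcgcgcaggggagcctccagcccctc
Hmcn1, chr1:150993436-150993685, minus strand: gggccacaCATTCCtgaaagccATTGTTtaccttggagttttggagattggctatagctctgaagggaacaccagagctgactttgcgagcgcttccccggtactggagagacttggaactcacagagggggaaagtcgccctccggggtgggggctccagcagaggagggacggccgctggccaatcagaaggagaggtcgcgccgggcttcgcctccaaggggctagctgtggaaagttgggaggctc
Ppp1r3c, chr19:36736605-36736854, minus strand: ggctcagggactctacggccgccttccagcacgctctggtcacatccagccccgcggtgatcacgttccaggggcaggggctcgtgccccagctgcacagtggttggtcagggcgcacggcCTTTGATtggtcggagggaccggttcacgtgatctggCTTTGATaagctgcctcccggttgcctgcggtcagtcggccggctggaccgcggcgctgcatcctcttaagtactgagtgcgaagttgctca

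Angptl7 encodes a secreted angiopoietin-like protein, Postn the matrix protein periostin, and Hmcn1 the matrix protein hemicentin. The SOX letters of Angptl7 lie close to its start, and those of Hmcn1 share bases with the forkhead letters (TGTTTAC). Ppp1r3c, which encodes a glycogen-targeting subunit of protein phosphatase, holds the TCF/LEF letters 2 times.

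Across the 300 bases of each promoter, TEAD letters occurred in 17 of the 50 HFSC promoters (34%), against 15.2% of the 92 promoters that shared as much with a window more open in young EpdSCs and 13.5% of all 21045 promoters. SOX letters occurred in 8 (16%), against 3.26% of the EpdSC promoters and 8.91% of all. TCF/LEF letters occurred in 4 (8%), against 1.09% and 3.25%. The letters of AP-1 (TGANTCA) were in 4 HFSC promoters (8%), against 21.7% of the EpdSC promoters and 7.04% of all, and those of GATA factors (AGATAA) in 3 (6%), against 14.1% and 9.68%. The letters of GRHL factors (AACCNGTT) were in 4 (8%), against 2.17% and 1.97%, and those of RUNX factors (TGTGGTT) in 4 (8%), against 3.26% and 4.74%. The letters of KLF factors (CCACACCC) were in 0, against 5.43% and 3.64%. The letters of LHX2 and related homeobox factors (TAATTA) were in 3 (6%), against 6.52% and 4.47%, those of NFAT (TGGAAAA) in 3 (6%), against 4.35% and 6.02%, and those of forkhead factors in 2 (4%), against 4.35% and 3.03%. The letters of GLI (GACCACCCA) were in 0, against 0% and 0.181%. Of the 12 motifs, all read on both strands, at least 1 was in all but 20 of the 50 promoters, and 2 of them shared a base in 3 promoters. These are counts of letters on few promoters, with no test. Promoters dense in CpG were less common than at equally open windows: 48% of the HFSC promoters held 10 or more CpG, against 53.3% of the EpdSC promoters, 94.9% of 4056 promoters in equally open windows and 57.3% of all. Most of the windows lie away from promoters, and their own sequences were not analysed here.

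The 6702 windows were discrete sites. Joined where adjacent, they formed 4467 regions, of which 2687 held 1 window, 1427 held 2 and 353 held 3 or more. The longest, 6 regions, spanned 3000 bases. Around the strongest window of each region the mean signal peaked at 3.66 CPM in aged HFSCs and 7.90 CPM in young HFSCs, and it was 0.693 CPM in aged EpdSCs and 0.720 CPM in young EpdSCs. At 5 kb from it, towards lower coordinates, the 4 means lay between 0.311 and 0.546 CPM.

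**Figure D1:**
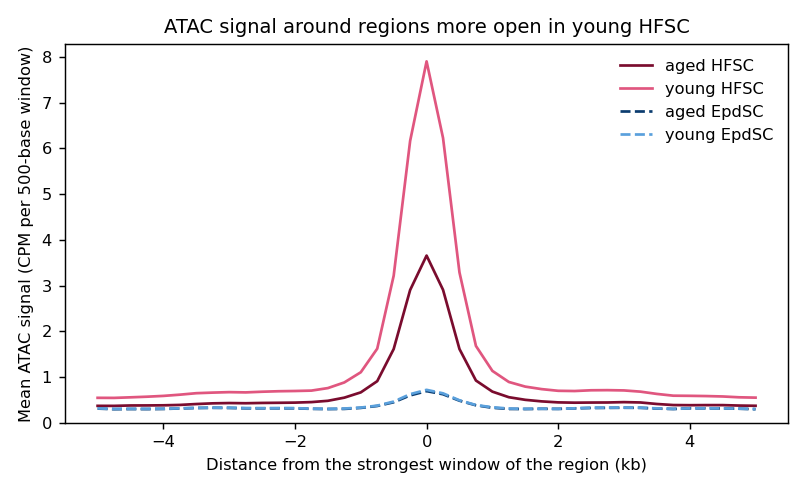
Mean ATAC signal (CPM per 500-base window, y axis) by distance in kb from the strongest window of each of 4467 regions (x axis), with 1 line for each of the 4 libraries. The centre and the young lines follow from the choice of regions; the aged HFSC line, which the choice did not use, peaks at 3.66 CPM at the same place, above both EpdSC lines, which reach 0.693 and 0.720 CPM.

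Most of these windows had little signal in EpdSCs rather than a moderate one. The median window had 3.03 CPM in aged HFSCs (quartiles 2.06 and 4.25), 6.34 CPM in young HFSCs (4.93 and 8.87), 0.392 CPM in aged EpdSCs (0.174 and 0.829) and 0.455 CPM in young EpdSCs (0.214 and 0.911). Together the windows took 2.32% of counts in aged HFSCs, 5.03% in young HFSCs, 0.423% in aged EpdSCs and 0.443% in young EpdSCs. No counts were listed for 1 window in aged HFSCs, 109 in aged EpdSCs and 18 in young EpdSCs. At the other end, 25 windows reached 4 CPM in young EpdSCs as well, and 26 did in aged EpdSCs.

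The thresholds cut through a continuous range. Just inside the ratio, a window nearest to Chst2 had 7.37 CPM in young HFSCs and 1.77 CPM in young EpdSCs, while just outside a window nearest to Tead4 had 8.44 and 2.04 CPM. Just inside the level, a window nearest to Lmx1b had 4.01 CPM in young HFSCs and 0.884 CPM in young EpdSCs, and just outside one nearest to Msc had 3.97 and 0.188 CPM.

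The difference between the cell types was present at 24 months in nearly all windows. Aged HFSCs exceeded aged EpdSCs in 6623 of the 6702 windows (98.8%), by 2-fold or more in 6065 (90.5%) and by 4-fold or more in 4440 (66.2%). Over the 49554 windows with 4 CPM or more in either young library, 20.2% were higher in aged HFSCs and 9.05% were so by 4-fold or more. The median log2 ratio of aged HFSCs over aged EpdSCs was 2.56 (quartiles 1.66 and 3.46), on a scale with 0.1 CPM added. For comparison, the 5905 windows more open in young EpdSCs by the reverse rule had a median of -2.98, and 92.4% of them were 4-fold or more higher in aged EpdSCs. Aged HFSC signal was the higher one in 0 of those, and in 0.102% of them after the scaling described next. With that scaling the median was -2.09 in those windows and 3.45 in the 6702 windows. Which set had the larger aged difference therefore depended on the scaling.

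Scaling the aged pair by counts at gene starts brought the median of the equally open windows to -0.07. Of these windows 67.3% lay within 1 kb of a gene start, so that median does not check the scaling. The aged HFSC library was not lower by 1 factor everywhere. Its median log2 ratio over young HFSCs was -0.95 in equally open windows and -0.06 in windows more open in young EpdSCs. After scaling by gene starts the median aged log2 ratio over the 6702 windows was 3.45, with 88.7% at 4-fold or more and 99.9% above 1. The share at 4-fold or more therefore depended on the scaling, while the direction held in at least 98.8% of windows under either. The added 0.1 CPM also moved the share. With 1 CPM added in both the choice and the aged ratio, 24.2% of the windows then chosen were at 4-fold or more.

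**Figure D2:**
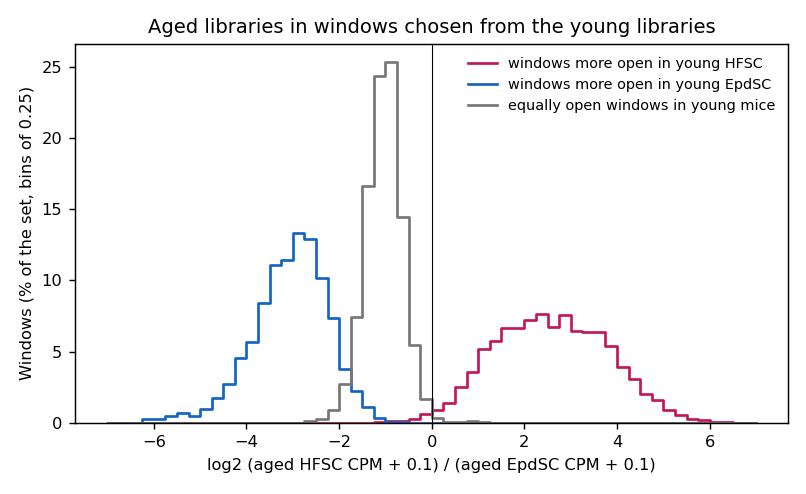
Share of windows (y axis, percent of each set, bins of 0.25) by the log2 ratio of aged HFSC over aged EpdSC signal (x axis, 0.1 CPM added) for 3 sets chosen from the young libraries. Windows more open in young HFSCs centre on 2.56, those more open in young EpdSCs on -2.98, and equally open windows on -1.02, below 0.

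The size of the young difference went with that of the aged one. The windows were ordered by the young log2 ratio and split into 4 groups of equal size. In the group with the largest ratios 97.5% were at 4-fold or more in the aged pair, then 89.1% and 59.3%, and in the group with the smallest ratios 319 of 1675 were. Splitting by young HFSC level gave 68.8% in the highest group and 62.8% in the lowest. Over the 6702 windows Spearman's rho between the young and aged log2 ratios was 0.78 and Pearson's r was 0.76. These are descriptions across windows of the same 4 libraries, in which the share just above the threshold is bound to be lower.

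Within HFSCs, the aged library had less signal than the young one in 6629 windows, with a median log2 ratio of -1.12. Equally open windows had a median of -0.95 for the same pair of libraries. In EpdSCs the median log2 ratio of aged over young signal in the 6702 windows was -0.10. Choosing windows for a high young HFSC value lowers any other library on average, so these medians are a description with no test. Of the 6702 windows, 2038 still had 4 CPM or more in aged HFSCs, and 73 had a higher CPM in aged than in young HFSCs.

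The windows lay far from gene starts. Of the 6702, 201 (3.00%) were within 1 kb of the start of a RefSeq protein-coding gene, 907 (13.5%) at 1 to 10 kb, 2193 (32.7%) at 10 to 50 kb, 1256 (18.7%) at 50 to 100 kb and 2145 (32.0%) beyond 100 kb. The median distance was 51597 bases, against 22928 bases for windows more open in young EpdSCs, 116 bases for equally open windows and 64298 bases for all windows of the genome. Within 1 kb lay 8.18% of the windows more open in EpdSCs, 67.3% of equally open windows and 2.49% of all windows. Beyond 1 kb, 2834 windows (42.3% of the 6702) were inside the bounds of a protein-coding gene and 3667 (54.7%) were between genes. Strand was known for 17274 of the 21631 genes. For the rest either end was taken as a start, which can only shorten distances. With those genes left out altogether, which can only lengthen distances, 2.09% were within 1 kb.

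**Figure D3:**
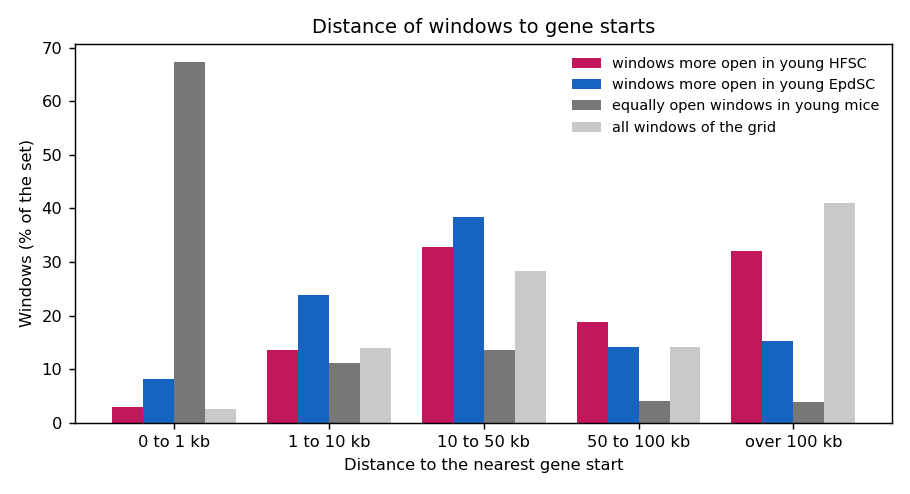
Share of windows (y axis, percent of each set) by distance to the nearest gene start (x axis, 5 classes) in 4 sets. In the class within 1 kb the bars are 3.00% for windows more open in young HFSCs, 8.18% for those more open in young EpdSCs, 67.3% for equally open windows and 2.49% for all windows.

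Distal windows had the larger differences at 24 months. The share at 4-fold or more in the aged pair was 46.3% within 1 kb, 59.3% at 1 to 10 kb, 63.1% at 10 to 50 kb, 65.4% at 50 to 100 kb and 74.8% beyond 100 kb. Median aged HFSC signal was 3.03 CPM in each of these classes, while median aged EpdSC signal was 0.741 CPM within 1 kb and 0.305 CPM beyond 100 kb. So the aged HFSC medians did not move with distance, and the aged EpdSC medians did. The young libraries, which chose the windows, showed the same gradient. Median young EpdSC signal was 0.777 CPM within 1 kb and 0.322 CPM beyond 100 kb, and median young HFSC signal was 6.19 and 6.34 CPM. Whether age acts on windows by distance was not tested. By chromosome, the autosomes held 1.03 to 1.71 such windows per 1000 windows and chromosome X held 0.134, or 46 windows. Equally open windows were also less common on X, with 196, which is 1.76% of them where X holds 6.49% of all windows.

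The most open regions included sites far from the start of any protein-coding gene. All coordinates are in mm10, the build in the submitters' processing notes. The highest window in young HFSCs, chr14:87568001-87568500, lay 151 kb from the start of Tdrd3, which encodes a Tudor-domain protein. It had 11.5 CPM in aged HFSCs, 32.1 CPM in young HFSCs, 3.18 CPM in aged EpdSCs and 4.88 CPM in young EpdSCs. In 9 of the 10 regions with the highest young HFSC signal, this one included, EpdSCs also had signal, at 2.53 to 4.67 CPM in aged and 3.46 to 5.04 CPM in young cells.

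The exception was chr10:84221001-84221500, which lay 219 kb from Nuak1, a gene for an AMPK-related kinase. It had 11.5 CPM in aged HFSCs, 27.1 CPM in young HFSCs, 0.480 CPM in aged EpdSCs and 0.375 CPM in young EpdSCs. In the aged pair this was a 24.0-fold difference (95% counting interval 12.8 to 49.7). The remaining regions were nearest to Ccdc81, Zfp365, Atp6v0e2, Tfap2b, Ston1, Acsbg1, Adgrg6 and Cxcl14. The one nearest to Tfap2b, a gene for an AP-2 transcription factor, lay 638 kb away with 13.2 CPM in aged HFSCs, 29.6 CPM in young HFSCs, 4.23 CPM in aged EpdSCs and 4.18 CPM in young EpdSCs.

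Some genes had many such windows around them. Of the 6702 windows, 3301 (49.3%) were within 50 kb of a start and named 1552 genes, which are called nearby genes here and are 7.17% of 21631 protein-coding genes. The nearest gene is a neighbour and need not be the one a window acts on. One window was found near 741 genes, 2 or 3 near 605, 4 to 6 near 159 and 7 or more near 47. Plpp1, a gene for a lipid phosphate phosphatase, had 21 windows, of which 18 were at 4-fold or more in the aged pair. Summed over them, signal was 64.7 CPM in aged HFSCs, 181 CPM in young HFSCs, 7.85 CPM in aged EpdSCs and 9.30 CPM in young EpdSCs. Trabd2b, whose human counterpart cleaves WNT proteins, had 16, and Grem1, the secreted BMP inhibitor gremlin, and App, the amyloid precursor protein, had 13 each. Ism1, Nfatc1, Sfrp1 and Lgr5 had 12 each and Gnb1l 11. Tbx1, next to Gnb1l, had 6 of its own.

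RNA of all these genes, Tbx1 included, was higher in young HFSCs than in young EpdSCs (edgeR quasi-likelihood test, adjusted p-values over 21464 genes). Plpp1 RNA was 94.4 and 67.4 CPM in aged HFSCs, 115 and 113 CPM in young HFSCs, 0.742 and 0.749 CPM in aged EpdSCs, and 0.706 and 0.691 CPM in young EpdSCs. HFSC and EpdSC libraries did not overlap, and the log2 fold change in young mice was 7.34 ± 0.24 (SE; edgeR adjusted p = 9.4e-09). For Grem1 the libraries gave 867 and 815 CPM in aged HFSCs, 948 and 832 CPM in young HFSCs, 1.14 and 1.37 CPM in aged EpdSCs, and 1.12 and 1.18 CPM in young EpdSCs. The young log2 fold change of Grem1 was 9.59 ± 0.21 (SE; edgeR adjusted p = 8.1e-10). App, expressed in both cell types, showed the smallest of these differences, with a log2 fold change of 2.02 (SE 0.13, adjusted p = 5.8e-07 by edgeR).

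Nearly all transcription factors that mark HFSCs had such windows. Of 15 in the list, 14 (93.3%, where 7.17% of all genes did) had a nearby window. They had 55 windows in all, and 30 of these were at 4-fold or more in the aged pair. Such counts, here and in the later lists, are read against 66.2% of all windows more open in young HFSCs. By distance to the gene start that share was 46.3% within 1 kb, 59.3% at 1 to 10 kb and 63.1% at 10 to 50 kb. In RNA 14 of the 15 were higher in young HFSCs and 0 lower (edgeR, adjusted p under 0.05), with a median log2 fold change of 2.55 against 0.06 over all genes tested, of which 13.1% were called higher and 13% lower. The list was written knowing that such genes mark HFSCs. Gli3 was the only one of them with no nearby window, and Nfix, expressed in both cell types, the only one not called, at a log2 fold change of -0.04 (SE 0.14, adjusted p = 0.88 by edgeR).

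Lhx2, a LIM homeobox factor that maintains the bulge, had 7 windows, the strongest of which lay 308 bases from its start, inside the gene, at chr2:38350501-38351000. It had 10.1 CPM in aged HFSCs, 19.7 CPM in young HFSCs, 3.44 CPM in aged EpdSCs and 3.19 CPM in young EpdSCs. Lhx2 RNA averaged 377 ± 31.6 CPM in aged HFSCs, 412 ± 53.5 CPM in young HFSCs, 1.52 CPM in aged EpdSCs and 1.71 CPM in young EpdSCs (SD, n = 2 each). At Tbx1, a T-box factor, the window at the start (chr16:18588501-18589000) had 5.94 CPM in aged HFSCs, 10.1 CPM in young HFSCs, 0.305 CPM in aged EpdSCs and 0.589 CPM in young EpdSCs, and all 6 of its windows were at 4-fold or more in the aged pair. Lhx2 had 2 of 7 at that level, with more EpdSC signal.

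Nfatc1, which holds HFSCs in quiescence, had its strongest window on chromosome 18, outside the gene and 40.2 kb from an end of it. That window had 9.46 CPM in aged HFSCs, 21.7 CPM in young HFSCs, 2.88 CPM in aged EpdSCs and 3.99 CPM in young EpdSCs. Foxp1 and Nfib, further quiescence or identity factors, had windows of 13.3 and 10.1 CPM in aged HFSCs, and 25.8 and 21.8 CPM in young HFSCs. The Foxp1 window lay 7.51 kb from the gene start, and the Nfib window 6.17 kb from an end of the gene. The windows of the repressor gene Tcf7l1 and of Gli2, an effector of Hedgehog signalling, were nearly closed in EpdSCs. For Tcf7l1 the strongest had 8.73 CPM in aged HFSCs, 13.6 CPM in young HFSCs, 0.392 CPM in aged EpdSCs and 0.857 CPM in young EpdSCs. Sox9, the pioneer factor of hair follicle fate, had 2 windows, the stronger with 3.52 CPM in aged HFSCs, 8.60 CPM in young HFSCs, 1.13 CPM in aged EpdSCs and 1.90 CPM in young EpdSCs.

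Of 20 bulge marker genes, 15 (75%) had a nearby window, 73 windows in all, with 50 at 4-fold or more in the aged pair. RNA of 19 of the 20 was higher in young HFSCs and of 0 lower, with a median log2 fold change of 4.91; this list too was made of known markers. Cxcl14, a chemokine gene, lost its call without the second young EpdSC library (edgeR adjusted p = 0.062). At the start of Cd34, chr1:194938501-194939000 had 3.15 CPM in aged HFSCs, 6.92 CPM in young HFSCs, 0.349 CPM in aged EpdSCs and 0.295 CPM in young EpdSCs. In the aged pair this was 9.04-fold (95% counting interval 3.98 to 23.1). Angptl7 had 7 windows, with the strongest 39 bases from its start, at 5.94 CPM in aged HFSCs, 15.4 CPM in young HFSCs, 0.523 CPM in aged EpdSCs and 0.402 CPM in young EpdSCs.

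The WNT inhibitor genes Sfrp1 and Dkk3, the latent TGF-beta binding protein gene Ltbp2 and the receptor gene Lgr5 had 12, 5, 7 and 12 windows. All 7 of Ltbp2 were at 4-fold or more in the aged pair, and its strongest had 4.61 CPM in aged HFSCs, 13.3 CPM in young HFSCs, 0.174 CPM in aged EpdSCs and 0.455 CPM in young EpdSCs. Krt15, a keratin long used to mark the bulge, had 1 window, 1.55 kb from an end of the gene, at 3.64 CPM in aged HFSCs, 7.91 CPM in young HFSCs, 0.829 CPM in aged EpdSCs and 1.47 CPM in young EpdSCs. Its RNA was abundant in both cell types, at 5040 ± 296 CPM in aged HFSCs, 5518 ± 1167 CPM in young HFSCs, 4005 ± 440 CPM in aged EpdSCs and 4778 CPM in young EpdSCs (SD, n = 2 each). Krt15 was the only bulge marker not called, with a log2 fold change of 0.21 (SE 0.18, adjusted p = 0.48 by edgeR).

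**Figure D4:**
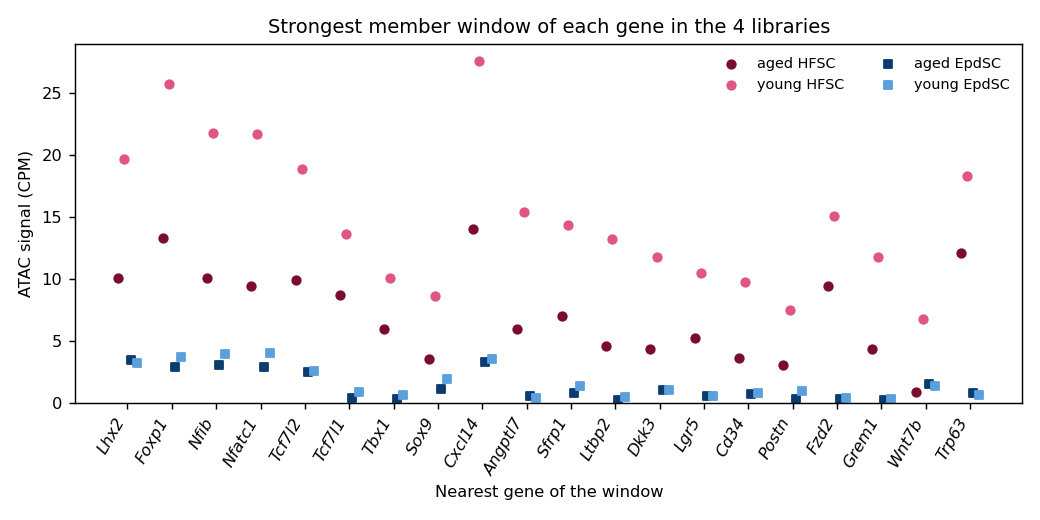
ATAC signal (CPM, y axis) in aged HFSCs, young HFSCs, aged EpdSCs and young EpdSCs for the strongest such window of 20 genes from the lists (x axis), 1 point per library. In 19 of the 20 the aged HFSC point lies above both EpdSC points; at Wnt7b it is 0.849 CPM, below 1.53 and 1.34 CPM in aged and young EpdSCs (aged log2 ratio -0.78, or 0.11 after scaling by gene starts).

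Some genes of the epidermal programme had windows too. Of 16, Klf4, Ptgs1 and Trp63 had one (18.8%, where 7.17% of all genes did), 5 windows in all, while 10 of the 16 (62.5%, where 10.1% of all genes did) had a nearby window more open in young EpdSCs. RNA of 15 was lower in young HFSCs and of 0 higher, with a median log2 fold change of -2.61. At these 3 genes window and RNA went in different directions. Trp63, which encodes p63, the master factor of stratified epithelia, had 3 windows, the strongest 8.41 kb from an end of the gene. That window had 12.1 CPM in aged HFSCs, 18.3 CPM in young HFSCs, 0.785 CPM in aged EpdSCs and 0.616 CPM in young EpdSCs, yet Trp63 RNA was lower in young HFSCs, with a log2 fold change of -0.48 (SE 0.14, adjusted p = 0.022 by edgeR). Trp63 lost that call without the first young HFSC, the second young HFSC or the first young EpdSC library (edgeR adjusted p = 0.059, 0.063 and 0.16). Klf4, a factor of barrier differentiation, had a log2 fold change of -0.77 (SE 0.21, adjusted p = 0.018 by edgeR), and lost its call without the second young HFSC or the first young EpdSC library (edgeR adjusted p = 0.10 and 0.066). For the cyclooxygenase gene Ptgs1 the log2 fold change was -5.07 ± 0.65 (SE; edgeR adjusted p = 0.00011).

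In the WNT pathway, 8 of 23 genes had a window (34.8%, where 7.17% of all genes did): Fzd2, Fzd3 and Fzd7, which encode WNT receptors, Lrp5 and Lrp6, their co-receptors, Lgr4, a receptor for R-spondins, Sostdc1, a secreted BMP and WNT antagonist, and the ligand gene Wnt7b. A nearby window more open in young EpdSCs was found for 9 of the 23 (39.1%, where 10.1% of all genes had one). RNA of 9 of the list was higher and of 9 lower in young HFSCs among 22 tested (13.1% and 13% of all genes tested were), with a median log2 fold change of 0.04 (0.06 over all genes), and the 9 lower included the ligand genes Wnt3, Wnt4, Wnt5a, Wnt7b, Wnt10a and Wnt16. Fzd2 had 9.46 CPM in aged HFSCs, 15.1 CPM in young HFSCs, 0.305 CPM in aged EpdSCs and 0.375 CPM in young EpdSCs at its strongest window. Its RNA averaged 358 CPM in aged HFSCs, 310 CPM in young HFSCs, 9.40 CPM in aged EpdSCs and 9.44 CPM in young EpdSCs. All 5 windows of Lrp6 were at 4-fold or more in the aged pair. Wnt7b RNA was lower in young HFSCs, with a log2 fold change of -1.74 (SE 0.18, adjusted p = 2.4e-05 by edgeR), and 0 of its 3 windows were at 4-fold or more.

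Of 25 BMP and TGF-beta genes, 9 (36%) had a window, with 36 windows and 24 at 4-fold or more in the aged pair. More of the 25, 12 (48%), had a nearby window more open in young EpdSCs. Of all genes, 7.17% had the first kind of window and 10.1% the second. RNA of 11 was higher and of 6 lower in young HFSCs, where 13.1% and 13% of all genes tested were, with a median log2 fold change of 0.42. Beside Grem1, Id2, a target of BMP signalling, had 6 windows, the strongest with 4.37 CPM in aged HFSCs, 14.4 CPM in young HFSCs, 1.61 CPM in aged EpdSCs and 1.42 CPM in young EpdSCs. The inhibitory SMAD genes Smad6 and Smad7 had 2 windows each, and their RNA was higher in young HFSCs at log2 fold changes of 4.23 ± 0.47 and 2.27 ± 0.24 (SE; edgeR adjusted p = 3.6e-05 and 2.8e-05). Tgfbr3, the co-receptor betaglycan, had 3 windows and lower RNA, with a log2 fold change of -2.10 (SE 0.14, adjusted p = 5.7e-07 by edgeR).

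Of 28 basement membrane and matrix genes, 11 (39.3%) had a window, where 7.17% of all genes did. Of their 25 windows, 13 were at 4-fold or more in the aged pair, where 66.2% of all windows more open in young HFSCs were. A window more open in young EpdSCs was near 5 of the 28 (17.9%, where 10.1% of all genes had one). In RNA 12 were higher and 5 lower in young HFSCs, where 13.1% and 13% of all genes tested were. The median log2 fold change was 0.34. Col4a3, a basement membrane collagen chain, had 5 windows, all at 4-fold or more, the strongest with 3.64 CPM in aged HFSCs, 9.59 CPM in young HFSCs, 0.262 CPM in aged EpdSCs and 0.241 CPM in young EpdSCs. Of 24 guidance and adhesion genes, 7 (29.2%) had a window, with 14 of 16 windows at 4-fold or more. A window more open in young EpdSCs was near 6 of the 24 (25%). In RNA 10 were higher and 7 lower in young HFSCs, against the same 13.1% and 13% of all genes tested. Their median log2 fold change was 0.48. Epha4 and Nrp2 lost their calls without the second young EpdSC and the first young HFSC library (edgeR adjusted p = 0.055 and 0.093). Sema3e, a secreted semaphorin, had 6, all at 4-fold or more, and the strongest had 8.49 CPM in aged HFSCs, 18.1 CPM in young HFSCs, 0.523 CPM in aged EpdSCs and 0.697 CPM in young EpdSCs. Plxnd1, the receptor gene for this ligand, had 2 windows, yet its RNA was lower in young HFSCs, with a log2 fold change of -2.97 (SE 0.48, adjusted p = 0.00067 by edgeR).

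RNA, which the rule did not use, was higher in HFSCs for a large part of all nearby genes. Of the 1552, 1526 matched 1 gene in the RNA files, 1438 were tested and 88 were under the filter on low counts. In young mice 661 of the 1438 (46.0%) were higher in HFSCs and 160 (11.1%) lower (edgeR, adjusted p under 0.05), where 13.1% and 13% of all genes tested were. A further 617 were not called. The median log2 fold change was 0.75, against 0.06 over all genes tested. In aged mice 607 (42.2%) were higher and 165 (11.5%) lower, where 11.9% and 12.2% of all genes were. Genes near windows more open in young EpdSCs showed the reverse, with 8.44% higher and 47.2% lower in young HFSCs of 2026 tested. The 230 genes near both kinds of window had 24.3% higher and 32.2% lower.

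Both the distance and the number of windows went with the RNA. Among genes with a window within 1 kb of the start, 94 of 123 tested (76.4%) were higher in young HFSCs and 4 (3.25%) lower, with a median log2 fold change of 3.38. The share higher was 49.3% of 471 genes whose closest window was at 1 to 10 kb and 39.7% of 844 at 10 to 50 kb. With 7 or more windows, 40 of 45 genes (88.9%) were higher, with a median log2 fold change of 5.82. With 4 to 6 windows it was 110 of 151 (72.8%), with 2 or 3 it was 47.2% of 559 and with 1 it was 36.2% of 683. In aged mice the shares in the same order were 88.9%, 64.9%, 44.9% and 31.9%. These shares are read against 13.1% in young and 11.9% in aged mice over all genes.

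**Figure D5:**
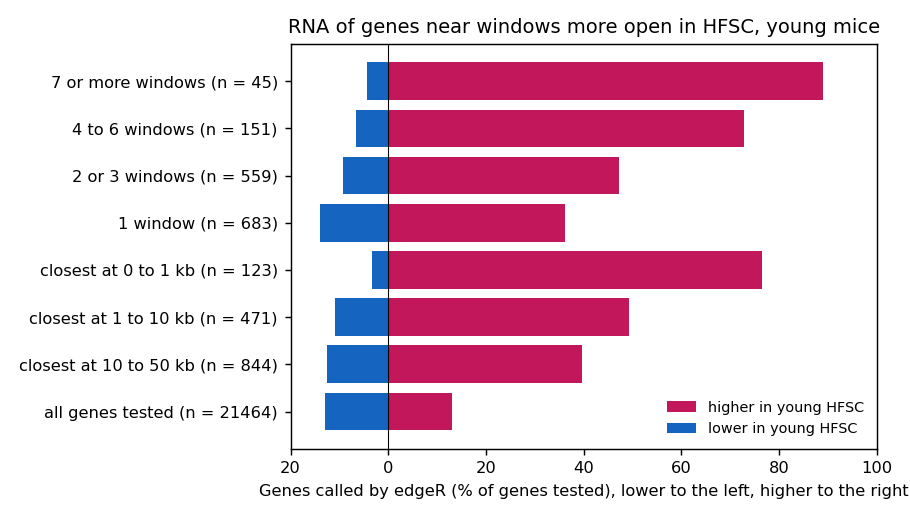
Percentage of genes called by edgeR in young HFSCs against young EpdSCs (x axis, lower to the left and higher to the right) for genes grouped by number of nearby windows and by distance of the closest one (y axis, with the number tested). The share called higher is 88.9% with 7 or more windows and 36.2% with 1, and 13.1% over all genes tested.

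Genes with a window at their start included some with almost no RNA in EpdSCs. Kcnk10, which encodes a potassium channel, had 8.01 and 7.57 CPM of RNA in aged HFSCs, 18.9 and 11.6 CPM in young HFSCs, 0.0309 and 0 CPM in aged EpdSCs, and 0 CPM in both young EpdSC libraries. Il31ra, a cytokine receptor gene, had 681 and 356 CPM in aged HFSCs, 1182 and 825 CPM in young HFSCs, 0.0309 and 0.326 CPM in aged EpdSCs, and 0.324 and 0.757 CPM in young EpdSCs. Neither gene overlapped between the cell types. The window at the Il31ra start, chr13:112580501-112581000, had 2.67 CPM in aged HFSCs, 8.41 CPM in young HFSCs, 1.31 CPM in aged EpdSCs and 0.536 CPM in young EpdSCs, so its aged difference was 2.04-fold (95% counting interval 1.12 to 3.66). Its log2 ratio was 0.98 in the aged pair, or 1.90 after scaling by gene starts, and 3.74 in the young pair.

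Shisa2, whose product retains WNT and FGF receptors in the endoplasmic reticulum, had at its start 7.88 CPM in aged HFSCs, 12.7 CPM in young HFSCs, 0.785 CPM in aged EpdSCs and 0.804 CPM in young EpdSCs. Its RNA was 390 and 464 CPM in aged HFSCs, 404 and 327 CPM in young HFSCs, and at most 0.716 CPM in the EpdSC libraries. Pdlim3, Lmcd1, Pdzrn4, Tbx1, Cd34, Grem1 and Angptl7 completed the 10 with the largest RNA differences, at young log2 fold changes of 8.59 to 10.54. The window at the Pdlim3 start had an aged log2 ratio of -0.20, or 0.69 after scaling by gene starts, at 0.970 CPM in aged HFSCs, 4.93 CPM in young HFSCs, 1.13 CPM in aged EpdSCs and 0.616 CPM in young EpdSCs, although Pdlim3 RNA remained higher in aged HFSCs, with a log2 fold change of 8.35 over aged EpdSCs (SE 0.62, adjusted p = 1.7e-06 by edgeR).

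Tmem45a, Gipc1, Slc6a9 and Osbpl5 were the 4 genes with a window within 1 kb and lower RNA in young HFSCs. For Tmem45a, a transmembrane protein gene, RNA was 94.6 and 124 CPM in aged HFSCs, 74.9 and 66.8 CPM in young HFSCs, 334 and 380 CPM in aged EpdSCs, and 304 and 290 CPM in young EpdSCs. Its log2 fold change was -2.07 ± 0.17 (SE; edgeR adjusted p = 2.8e-06). The other 3 had log2 fold changes of -0.75, -0.68 and -0.57, and lost their calls without single libraries. For Gipc1 these were the second young HFSC and the first young EpdSC library (edgeR adjusted p = 0.052 and 0.12), for Osbpl5 the first young HFSC and the first young EpdSC library (0.077 and 0.062), and for Slc6a9 any of the 4 young libraries (0.057 to 0.10).

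Age changed the RNA of few nearby genes in HFSCs. Of the 1438, 6 rose and 9 fell in aged against young HFSCs (edgeR, adjusted p under 0.05), which is 0.417% and 0.626%, where 0.294% and 0.0745% of all genes tested did. The median log2 fold change was -0.08, against 0.02 over all genes tested, and it was -0.17 for the 123 genes with a window within 1 kb. Those that fell included Peg3, Enc1, Plxna2, Fzd5, Chat, Ism1, Itgb6 and Bcl2, and those that rose were Cpe, Aknad1, Phyhipl, Lbh, Atp10b and Cyp17a1. DESeq2 called 29 that rose and 41 that fell, which is 2.02% and 2.85%, where it called 1.33% and 0.443% of all genes. The edgeR counts depend on single libraries: 0 rose and 1 fell without the second aged HFSC library, 11 rose without the first aged HFSC library or either young EpdSC library, and 15 to 20 fell without the first young HFSC library or any 1 EpdSC library.

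Peg3, a paternally expressed imprinted gene with 4 windows, averaged 20.2 ± 4.71 CPM in aged HFSCs and 111 ± 3.16 CPM in young HFSCs (SD, n = 2 each), with a log2 fold change of -2.46 (SE 0.23, adjusted p = 0.0028 by edgeR). Its strongest window had 8.49 CPM in aged HFSCs and 21.9 CPM in young HFSCs, a log2 ratio of -1.35. Peg3 was also lower in aged EpdSCs, with RNA of 0.656 ± 0.315 CPM in aged and 4.59 ± 0.449 CPM in young EpdSCs (SD, n = 2 each). The same window had 0.218 CPM in aged EpdSCs and 3.94 CPM in young EpdSCs. Ism1, which encodes the secreted protein isthmin and had 12 windows, averaged 103 ± 1.13 CPM in aged HFSCs and 215 ± 41.3 CPM in young HFSCs, and the integrin gene Itgb6 averaged 133 ± 12.9 and 268 ± 0.899 CPM in the same order (SD, n = 2 each). Atp10b, a lipid-transporting ATPase gene with 4 windows, averaged 8.66 ± 3.48 CPM in aged HFSCs and 2.07 ± 0.0879 CPM in young HFSCs (SD, n = 2 each). Its strongest window had 7.40 CPM in aged and 12.3 CPM in young HFSCs, a log2 ratio of -0.72 where equally open windows had a median of -0.95. Markers of other cells also differed between aged and young HFSCs. Of the 5 markers of the epidermis between follicles Ly6d was higher in aged HFSCs, of the 5 sebaceous markers Far2 and of the 5 markers of smooth muscle and pericytes Acta2 (edgeR adjusted p = 0.012, 0.026 and 0.047), and no other marker on these 3 lists was called. The epidermal markers summed to 220 and 282 CPM in aged HFSCs and 25.7 and 97.9 CPM in young HFSCs, and the sebaceous ones to 286 and 369 CPM in aged HFSCs and 118 and 139 CPM in young HFSCs. Acta2 was 1.81 and 11.7 CPM in aged HFSCs, so 1 library held most of it, and 0.300 and 0.433 CPM in young HFSCs. The part of these cells in the changes with age was not tested. No nearby gene was called for a change of the cell-type difference with age (0 of 1438 by edgeR's interaction test, and 129 at an unadjusted p under 0.05, which is 8.97% against 4.57% of all genes tested; no other tool was run on the interaction).

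A few windows did not keep their direction. In 79 of the 6702 (1.18%) aged HFSCs were at or below aged EpdSCs, and after scaling by gene starts 99.9% of all windows were above 1. Among windows with 20 or more counts over the aged pair, the lowest ratios included those at windows nearest to Lpin2, Zfp648, Med13l and Coro2a, with aged log2 ratios of -1.17 to -0.86, or -0.26 to 0.01 after that scaling. The window nearest to Med13l, at chr5:118422501-118423000 and 138 kb from its start, had 2.30 CPM in aged HFSCs, 16.8 CPM in young HFSCs, 4.49 CPM in aged EpdSCs and 4.02 CPM in young EpdSCs.

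The highest aged ratios were at windows nearest to Tenm3, Crb2, Mbd2, Arl4c and Igfbp7. The window inside Tenm3, a teneurin adhesion gene, had 11.3 CPM in aged HFSCs, 20.1 CPM in young HFSCs, 0.0436 CPM (1 count) in aged EpdSCs and 0.295 CPM in young EpdSCs. At chr18:70761501-70762000, 132 kb from an end of Mbd2, the aged HFSC signal was above the young one, at 10.8 CPM in aged HFSCs, 4.24 CPM in young HFSCs, 0.0436 CPM (1 count) in aged EpdSCs and 0.134 CPM in young EpdSCs. Mbd2 RNA was lower in young HFSCs than in young EpdSCs, with a log2 fold change of -0.59 (SE 0.14, adjusted p = 0.0084 by edgeR).

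RNA of some genes used as markers of other cell types also differed between the sorted groups. Whether it came from such cells or from the sorted stem cells was not tested. The summed level of 8 melanocyte markers was 190 to 203 CPM in aged HFSCs, 213 to 260 CPM in young HFSCs, 16.0 to 20.1 CPM in aged EpdSCs and 12.3 to 17.8 CPM in young EpdSCs. Mitf alone gave most of that sum, and 5 of the 8 were higher in young HFSCs. Mitf had 4 of the 6702 windows nearby, and the pigment genes Dct, Tyrp1, Mlana, Pmel and Tyr, with Kit and Sox10, had 0. The strongest Mitf window had 1.94 CPM in aged HFSCs, 8.10 CPM in young HFSCs, 1.09 CPM in aged EpdSCs and 1.50 CPM in young EpdSCs. Of 6 fibroblast markers Col1a1 and Col1a2 were higher in young HFSCs and had 3 windows, and the sum was 52.3 to 84.5 CPM in aged HFSCs, 56.4 to 80.1 CPM in young HFSCs, 2.60 to 5.92 CPM in aged EpdSCs and 1.24 to 3.98 CPM in young EpdSCs. Dcn, Lum, Col3a1 and Pdgfra were not called and had no window.

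Of 5 endothelial markers Tek alone had windows, 2, and it was the only one higher in young HFSCs. Of 5 sebaceous markers Cidea had 1 window. Cidea and Mgst1 were higher in young HFSCs and Scd1 lower, and the 5 summed to 286 and 369 CPM in aged HFSCs, 118 and 139 CPM in young HFSCs, 393 and 232 CPM in aged EpdSCs, and 292 and 227 CPM in young EpdSCs. Markers of immune cells, and of smooth muscle and pericytes, had 0 windows and 0 genes higher in young HFSCs. The 6 bulge markers, all of which had windows (31 in all) and are also in the longer lists above, summed to 16764 to 17419 CPM in aged HFSCs, 16307 to 19116 CPM in young HFSCs, 3965 to 4478 CPM in aged EpdSCs and 4436 to 5748 CPM in young EpdSCs. The 5 markers of the epidermis between follicles summed to 220 to 282 CPM in aged HFSCs, 25.7 to 97.9 CPM in young HFSCs, 3526 to 3923 CPM in aged EpdSCs and 2493 to 2497 CPM in young EpdSCs, and had 0 windows. The part of such cells in the windows was not tested.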

How the data were processed

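ATAC-seq and RNA-seq of sorted HFSCs and EpdSCs of 24- and 2-month-old mice were analysed. The ATAC files hold counts in 500-base windows at 250-base steps, as deposited by the authors, and the RNA files hold counts per gene, also as deposited. Bowtie, STAR and the mm10 build are named in the submitters' processing notes; no source used here says how windows were counted or how strand, duplicates and cut positions were treated. Single-cell files of the same study were not used here. The members and lists were chosen with earlier results of these data known.

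From the deposited counts, CPM was computed over windows starting at multiples of 500 on chromosomes 1 to 19 and X, and ratios with 0.1 CPM added. Distances run to starts of 21631 RefSeq protein-coding genes of GRCm38.p6, the same assembly as mm10. Genes are nearby when theirs is the nearest start within 50 kb of a window. RNA of 8 libraries was tested in 1 fit with edgeR 4.0.16 (TMM, filterByExpr, quasi-likelihood, Benjamini-Hochberg) in R 4.3.3, and 21464 of 47729 genes passed the filter; RNA values are CPM with TMM scaling, and the common biological coefficient of variation was 0.277. On data simulated for the comparison of young HFSCs with young EpdSCs, the test recovered 63 of 100 genes changed by 1 on the log2 scale and 99 of 100 changed by 2, among 20208 genes. The changed genes were drawn only from genes above a set mean level, so recovery at low levels was not tested. No other gene was set to differ, and 11 of those were called. DESeq2 1.42.0 was an alternative, with other filters, pseudocounts, thresholds, scaling, grids, a block on the replicate number and libraries left out. Intervals for counts are exact at 95%, and for a ratio of counts they treat both as Poisson. Overlapping genes and near-identical copies may share counts.

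Named are the 10 regions with the highest young HFSC signal, the 10 genes with most windows, list genes with a window, the genes with a window within 1 kb and the largest RNA differences, windows at each threshold, and those with the lowest and highest aged ratio at 20 or more counts. Genes called with age were named after their values were seen. A few items that these rules name are not reported here.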

Additional observations from a re-analysis of the deposited data

Results flagged for a closer look

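In 7 of the windows named here, HFSCs were above EpdSCs in the young pair and below them in the aged pair. With 1 library per group these differences between ages were not tested. The aged log2 ratio of HFSCs over EpdSCs was -1.17 at the window nearest to Lpin2, a lipin phosphatase gene, -1.08 at Zfp648, -0.93 at Med13l, a Mediator subunit gene, -0.86 at Coro2a, a coronin gene, -0.78 at Wnt7b, -0.20 at Pdlim3 and -0.018 at Chst2. Lpin2, Zfp648, Med13l and Coro2a were named because their ratios were among the lowest. After scaling by counts at gene starts, where the aged HFSC library was lower, the ratios were -0.26 at Lpin2, -0.23 at Zfp648, 0.01 at Med13l, -0.01 at Coro2a, 0.11 at Wnt7b, 0.69 at Pdlim3 and 0.92 at Chst2. The counts behind the aged HFSC values are small, at 9 for Lpin2, 4 for Zfp648, 19 for Med13l, 4 for Coro2a, 7 for Wnt7b, 8 for Pdlim3 and 22 for Chst2.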

How the results depend on the processing

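Of 6702 windows, 4807 were chosen with 1 CPM added, 6688 on the grid shifted by 250 bases and 5514 with scaling by gene starts. A minimum of 8 CPM gave 2091, a minimum of 2 CPM 14579 and a ratio of 8 gave 4452. The share at 4-fold or more in the aged pair (66.2%) was 24.2% with 1 CPM added, 68.0% at 8 CPM, 61.5% at 2 CPM, 86.9% at a ratio of 8 and 90.4% with gene-start scaling in both pairs, and the median log2 ratio (2.56) was 1.60, 2.74, 2.34, 3.13 and 3.52 in the same order. With gene-start scaling of the aged pair alone, chosen after seeing the data, they were 88.7% and 3.45. The share within 1 kb (3.00%) was 2.16% with 1 CPM added, 1.93% at a ratio of 8 and 2.09% with genes of known strand, the last also chosen after seeing the data.

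Genes higher and lower in young HFSCs (661 and 160) were 326 and 55 within 10 kb and 94 and 4 within 1 kb; in aged HFSCs (607 and 165) they were 294 and 60, and 83 and 4. Under DESeq2, other filters, 4 libraries alone or libraries left out these stayed within 1.5-fold. Genes that rose and fell with age (6 and 9) were 44 and 70 with no filter, 3 and 5 with 1 CPM in 2 libraries, 1 and 1 in the 4 libraries alone, 29 and 41 by DESeq2, 1 and 4 within 10 kb and 0 and 0 within 1 kb, and 0 to 11 and 1 to 20 with libraries left out. The lower counts within 10 and 1 kb follow from fewer genes. For the others the cause was not tested. With no filter 2.89% of nearby genes rose and 4.60% fell with age, where 1.16% and 0.475% of all genes did. With 1 CPM in 2 libraries it was 0.226% and 0.377%, where 0.277% and 0.0580% of all genes did. By DESeq2 it was 2.02% and 2.85%, where 1.33% and 0.443% of all genes did. Leaving out 1 of 2 libraries assumes that the lone one varies like the other groups.

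Correlations of same-numbered deviations between groups were -0.213 to 0.174. With 2 libraries per group these cannot show whether replicate numbers pair libraries. With the replicate block, 668 and 170 genes were higher and lower in young HFSCs, 626 and 174 in aged HFSCs, and 15 and 18 rose and fell with age. Of 79 named genes called, 9 lost the call with a library left out and 0 under the block. With libraries left out the log2 fold change ran from -0.022 to 0.41 for Krt15, -0.18 to 0.059 for Lrp5 (0.0081 without the first young HFSC library), -0.17 to 0.057 for Nfix, -0.054 to 0.19 for Tgfbi (-0.044 without the first young HFSC library) and -0.087 to 1.02 for Thbs1. None was called in all 8 libraries, and Thbs1 was called without the first young EpdSC library (edgeR adjusted p = 0.0059). Depth limits single windows most in aged HFSCs, where 4 CPM is 33.0 counts.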
